A study of Mus musculus with 246 samples.

Results

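The response of the nucleus accumbens (Nacc) to a brief social interaction was measured in all 41 Nacc libraries of the series, which has 41 libraries from each of 6 brain regions. The libraries were chosen by their region label, and 20 libraries labelled SocialInteraction were compared with 21 labelled NoInteraction. Each library is 1 bilateral, pooled punch of the Nacc of 1 adult male outbred CD1 mouse. The study's methods name the shell as the part punched, while its introduction names the core. SocialInteraction mice met an unfamiliar mouse for 10 minutes before the brain was taken, and NoInteraction mice did not. The delay between the meeting and collection is not given in the sources used here. The 3 conditions were pooled and kept as a covariate. Ctrl_Vehicle mice (7 NoInteraction, 6 SocialInteraction) were reared with standard bedding by dams injected with an empty phospholipid gel. ELA_Vehicle mice (7 and 7) were reared with limited bedding and nesting material, a model of early life adversity, by dams given the same empty gel. ELA_SAFit2 mice (7 and 7) had the same adversity, and their dams were injected with gel that held SAFit2, an inhibitor of the glucocorticoid receptor co-chaperone FKBP51, which reached the pups through the milk. No mice with standard rearing and SAFit2 were made, so all SAFit2 mice also had the adversity.

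The Nacc is the ventral part of the striatum and is built mostly of medium spiny neurons, which carry either the dopamine receptor Drd1 or Drd2 and take part in reward and social behaviour. Neurons that become active transcribe immediate early genes such as Fos within minutes, and effector genes such as Nptx2 or Vgf follow. Exposure to novelty also releases glucocorticoids, which act in neurons, glia and vessel cells through the receptor Nr3c1 and induce genes such as Fkbp5, Plin4 and Tsc22d3. Chaperones of the heat shock and endoplasmic reticulum families fold proteins and are induced by warmth and by a high load of secreted protein, while Cirbp and Rbm3 are induced by cooling.

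Before the response was read, each Nacc library was matched to a mouse. Over 60 genes that differ between mice in the other regions, 29 libraries were most like their own mouse number, with a Pearson r of 0.889 to 0.968. The other 12 had an r of only -0.246 to 0.186 with their own number and of 0.771 to 0.97 with the number of another mouse. These 12 carry 12 consecutive library numbers, and their best matches form 1 closed cycle of 12 mice. Of the 12, 6 are labelled SocialInteraction and 6 NoInteraction. For 8 of them the best match was a mouse with the other exposure label, 4 in each direction, and for 7 a mouse of another condition. In the other regions 0 libraries matched another number, except 1 in the ACC. With the top 20 or 40 of these genes the ACC had 0 as well. The genes were chosen by their correlation between these 5 regions under the labelled numbers, which favours such matches. Correlations with the Nacc had no part in that choice. The 60 genes had no exposure p under 0.05 in any of the other 5 regions. Fos and Dusp1 are among them. All libraries were kept under the mouse and group on their label. The comparison over 41 libraries therefore holds 12 libraries whose exposure label may belong to another mouse, and the tests of the pooled response, the lists and the genes of the rule are given with them and without them. The 29 libraries that matched their own number are 15 NoInteraction and 14 SocialInteraction libraries, with 4 or 5 in each condition and exposure.

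**Figure D1:**
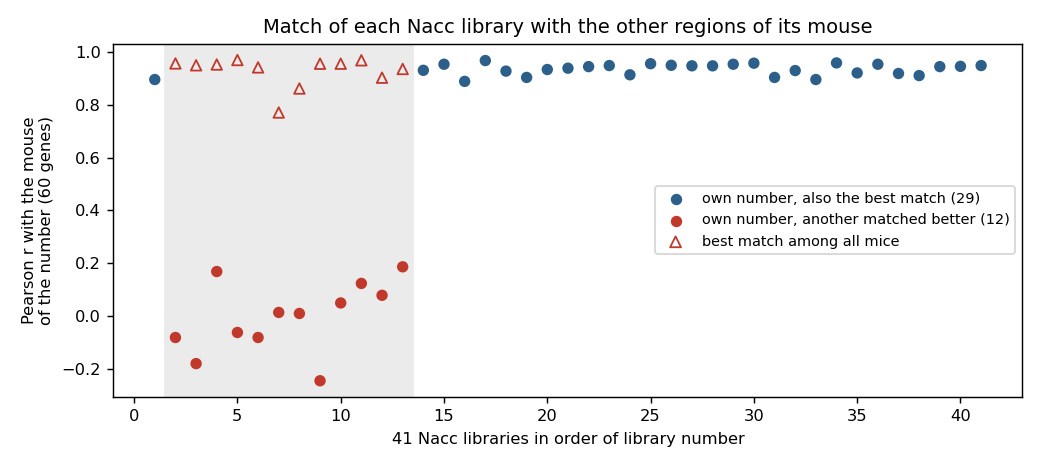
Pearson r over 60 genes between each of the 41 Nacc libraries (x axis, in order of library number) and the mean of the other regions of a mouse (y axis). Dots give the r with the mouse on the label, and triangles, drawn for 12 libraries, the best r among all mice. The 12 libraries on the grey ground lie between -0.246 and 0.186 with their own number and between 0.771 and 0.97 with another.

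Genes of medium spiny neurons marked the punches. Summed over 14 medium spiny neuron genes, the level was 3532 to 10230 CPM (a gene's count scaled to the library's total count) in the Nacc against a median of 1260 in the other regions, of which the BLA reached 7955, and Drd1 had a median of 206 CPM in the Nacc. The glutamate transporter gene Slc17a7, a cortical neuron gene, ranged from 20 to 1080 CPM among Nacc libraries. Total estimated counts were 22492997 to 43351424 per Nacc library. Half-widths of the 95% interval of a gene's log2 fold change had a median of 0.12 over 29 libraries. In bulk tissue, fewer cells of a type and less RNA per cell cannot be told apart.

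With all 41 libraries as labelled, 0 of 15881 genes passed an adjusted p of 0.05 (0%) in edgeR's quasi-likelihood test, and 0 passed in DESeq2. At an unadjusted p under 0.05, edgeR had 198 genes higher after social interaction (1.25%) and 189 lower (1.19%). The smallest p among higher genes, none of which passed, belonged to Csnk2a1-ps3, Pglyrp1, Plin4, Hhex and Zfp963, and among lower genes to Ahcyl, Itpripl2, Ranbp17, 1810024B03Rik and Gpam. Csnk2a1-ps3 (log2 fold change 0.80 ± 0.19 SE) and Ahcyl (-0.46 ± 0.12) are also among the 60 genes that differ between mice. For Csnk2a1-ps3 the NoInteraction libraries alone ran from 6.4 to 33.6 CPM and the SocialInteraction libraries from 12.2 to 36.7. For Gpam, which starts glycerolipid synthesis, the log2 fold change was -0.12 ± 0.03.

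Without the 12 libraries, 5 of 15618 genes passed (0.032%), all of them higher after social interaction: Clic5, Plin4, Pglyrp1, Mfsd2a and Ly6c1. At an unadjusted p under 0.05, 515 genes were higher (3.3%) and 604 lower (3.87%). DESeq2 called 21 higher and 15 lower (0.231%). Plin4 and Pglyrp1 were named by the rule for the 41 libraries, and the other genes called here were named after their values were seen.

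Plin4 encodes a coat protein of lipid droplets and is a known target of the glucocorticoid receptor. Among the 29 libraries it ran from 1.56 to 43.7 CPM after social interaction (median 3.98) and from 0.532 to 1.88 without it (median 1.22). The log2 fold change was 2.51 ± 0.39 (SE, n = 14 and 15, edgeR adjusted p = 0.00433). Of the 14 SocialInteraction libraries, 13 lay above the highest NoInteraction library. With all 41 libraries the log2 fold change was 1.54 ± 0.41 and did not pass.

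Mfsd2a encodes the transporter that carries docosahexaenoic acid as lysophosphatidylcholine across the blood-brain barrier. Its level was 17.5 to 39.3 CPM after social interaction (median 19.1) and 13.3 to 17.8 without it (median 15.5). The ranges overlapped narrowly, and 12 of 14 SocialInteraction libraries lay above every NoInteraction library. The log2 fold change was 0.47 ± 0.08 (adjusted p = 0.0257, edgeR) over 29 libraries and 0.25 ± 0.09 over 41. With each of the 29 libraries left out in turn, it passed in 23 of 29 fits.

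Ly6c1 encodes a surface protein of brain endothelial cells. It was 18.4 to 32.9 CPM after social interaction (median 21.3) and 12.3 to 20.9 without it (median 16.4), so the ranges overlapped. The log2 fold change was 0.39 ± 0.07 (adjusted p = 0.0278, edgeR) over 29 libraries and 0.23 ± 0.07 over 41. It passed in 18 of 29 fits that left out 1 library.

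Pglyrp1 encodes a secreted peptidoglycan-binding protein of innate immunity. It was 3.20 to 9.55 CPM after social interaction (median 4.14) and 2.21 to 3.87 without it (median 2.66), with 11 of 14 SocialInteraction libraries above every NoInteraction library. The log2 fold change was 0.71 ± 0.12 (adjusted p = 0.00753, edgeR) over 29 libraries and 0.46 ± 0.11 over 41.

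Clic5 belongs to the chloride intracellular channel family. It had the smallest spread of the 5, with 7.58 to 10.5 CPM after social interaction (median 8.97) and 6.29 to 8 without it (median 6.80). All but 1 of the 14 SocialInteraction libraries lay above every NoInteraction library. The log2 fold change was 0.37 ± 0.04 (adjusted p = 6.9e-05, edgeR) over 29 libraries and 0.20 ± 0.06 over 41.

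In the 12 libraries that matched another number, the labels gave another order. The 6 labelled SocialInteraction had a median of 6.95 CPM of Clic5 and the 6 labelled NoInteraction 8.37 CPM. For Plin4 the medians were 1.26 and 3.30 CPM, and for Mfsd2a 14.9 and 20 CPM. Pglyrp1 and Ly6c1 were also higher by median in the 6 labelled NoInteraction, at 3.71 against 3.20 and 19.5 against 18.0 CPM. The spread within each set of 6 was wide, with Plin4 at 0.785 to 6.47 CPM among those labelled NoInteraction.

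**Figure D2:**
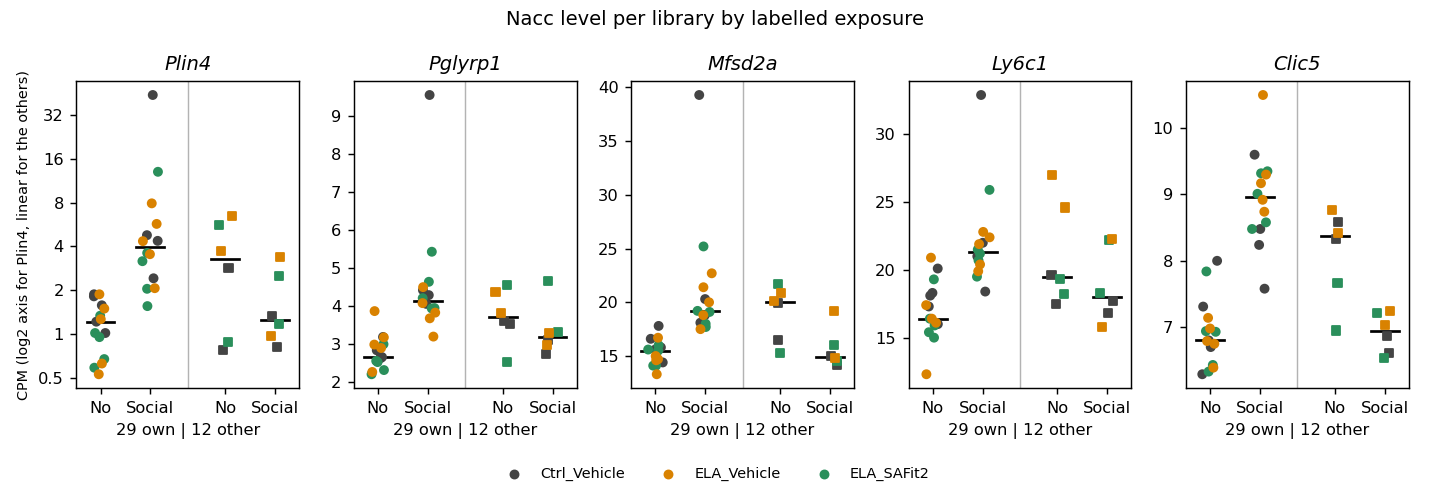
CPM per library of the 5 genes called over 29 libraries, by labelled exposure, with the 29 libraries that matched their own number on the left of each panel (dots) and the 12 others on the right (squares). Colours give the condition, bars the group medians. On the left, medians are higher after social interaction for each gene, and on the right they are lower.

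A single mouse stood at the top of several of these genes. The Ctrl_Vehicle SocialInteraction library of mouse 57, which matched its own number, had 43.7 CPM of Plin4, 39.3 of Mfsd2a, 32.9 of Ly6c1, 9.55 of Pglyrp1 and 90.7 of Fkbp5, each the highest of the 20 SocialInteraction libraries. In each of the other 5 regions the library of mouse 57 was also the highest of 20 for Plin4, at 19.3 to 68.1 CPM of the total count, and for Fkbp5, Mfsd2a and Pglyrp1. Without this library the 5 genes that passed in the Nacc were these same 5, and the log2 fold change of Plin4 was 1.94.

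The glucocorticoid list held 18 genes, all tested. Over 29 libraries 1 of them, Plin4, passed, and 7 had an unadjusted p under 0.05, all higher, where 3.3% of all genes were higher at that p. Over 41 libraries 4 of the 18 were higher at that p and 0 passed, where 1.25% of all genes were higher. The median log2 fold change of the list was 0.11 against -0.0037 over all genes tested, and over 41 libraries it was 0.076 against -0.00015. The other 6 with an unadjusted p under 0.05 were Hif3a, a hypoxia-inducible factor subunit, Tsc22d3, which encodes the glucocorticoid-induced leucine zipper, the metallothionein Mt2, the sulfotransferase Sult1a1, the kinase Map3k6 and Fkbp5. Tsc22d3 had a median of 38.7 CPM after social interaction and 32.4 without it, with overlapping ranges, and a log2 fold change of 0.41 ± 0.14 that did not pass (adjusted p = 0.439, edgeR) and 0.21 ± 0.14 over 41 libraries. Fkbp5, the target of SAFit2, was 40.4 to 90.7 CPM and 32 to 59 CPM, with a log2 fold change of 0.19 ± 0.09 (adjusted p = 0.671, edgeR) over 29 libraries and 0.11 ± 0.08 over 41. Sgk1, Per1 and Pdk4 had log2 fold changes of -0.04, -0.04 and -0.03 over 29 libraries and of -0.04, -0.09 and -0.04 over 41. The receptor gene Nr3c1 itself was at -0.01 ± 0.05 over both 29 and 41 libraries.

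Chaperone genes of the cytosol and the endoplasmic reticulum had mostly higher estimates after social interaction. Of 16 heat shock and cold-inducible genes, 12 had an unadjusted p under 0.05 over 29 libraries, 10 higher and 2 lower, beside 3.3% of all genes higher and 3.87% lower, and 0 passed in edgeR. Over 41 libraries 0 of the 16 had an unadjusted p under 0.05. The median log2 fold change was 0.12 over 29 libraries and 0.057 over 41. The 10 higher were Hsph1, Hspb1, Hspa8, Hspa5, Dnaja1, Hsp90ab1, Chordc1, Hspe1, Hspd1 and Hsp90aa1, and the 2 lower were the cold-inducible RNA-binding proteins Cirbp and Rbm3. Cirbp was 46.3 to 66.0 CPM after social interaction (median 56.9) and 56.4 to 80.4 without it (median 67.1). Its log2 fold change was -0.24 ± 0.05 with an adjusted p of 0.0535 in edgeR, just short of the threshold, and 0.00291 in DESeq2, and over 41 libraries it was -0.10 ± 0.06. All 14 SocialInteraction libraries lay below the NoInteraction median.

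A second list of 22 genes of protein folding in the endoplasmic reticulum, written after the first fits were seen, had 21 members tested. Over 29 libraries 13 had an unadjusted p under 0.05, all higher, beside 3.3% of all genes, and 0 passed in edgeR. Over 41 libraries 1 of the 21 was higher at that p. The median log2 fold change was 0.11 over 29 libraries and 0.067 over 41. DESeq2 called Dnajb11, Pdia3, Calr and Hspa5 of this list, and Hsph1, Hspa8, Hspb1 and Cirbp of the heat shock list. Hspa5 is a member of both lists and is counted in each. Hspa5, the main chaperone of the endoplasmic reticulum lumen also known as BiP, was 202 to 343 CPM after social interaction (median 232) and 154 to 285 without it (median 185), and its log2 fold change was 0.35 ± 0.09 (adjusted p = 0.188 in edgeR, 0.0395 in DESeq2) and 0.18 ± 0.09 over 41 libraries. Calr, the calcium-binding lectin chaperone calreticulin, was 311 to 451 CPM and 245 to 377 CPM, with a log2 fold change of 0.25 ± 0.06 (adjusted p = 0.175 in edgeR, 0.0319 in DESeq2) and 0.12 ± 0.07 over 41. The small heat shock protein gene Hspb1 was 3.43 to 8.70 CPM and 1.88 to 4.81 CPM, with 0.53 ± 0.13 over 29 libraries and 0.28 ± 0.15 over 41. For Hspa5, Calr and Hspb1 all 14 SocialInteraction libraries lay above the NoInteraction median, while the ranges overlapped. Hspa1a and Hspa1b, near-identical copies whose reads cannot be assigned surely, were at 0.25 ± 0.19 and 0.25 ± 0.18.

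To set sequences beside these values, promoters of the lists were searched in the RefSeq table for GRCm38.p6 with 250 bases before and 50 after each start. The endoplasmic reticulum stress element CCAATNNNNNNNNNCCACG, to which the factors ATF6 and NF-Y are known to bind, was found on either strand in 39 of 32841 promoters (0.119%), and in 7 of the 20 genes of the endoplasmic reticulum list that had a promoter there, which were Hspa5, Hsp90b1, Calr, Canx, Pdia6, Dnajc3 and Creld2. A heat shock element GAANNTTCNNGAA was in 198 promoters (0.603%), and in 4 of 12 genes of the heat shock list, which were Hsph1, Hspd1, Hspe1 and Chordc1. The percentages are shares of promoters, while a list gene counted if any of its promoters held a match, so they are unlike units. Dnajb11, Pdia3, Sdf2l1 and Hspb1, each with an unadjusted p under 0.05 in edgeR over 29 libraries, had no match of their list's motif. Dnajc3 and Creld2 had a match but no p under 0.05, while Hspa5, Hsp90b1, Calr, Canx and Pdia6 had both. A relation between match and response was not tested. Each window printed holds 1 match and no match of another motif. Windows of up to 30 bases on each side of the match are given 5′ to 3′ on the gene's strand, with the match in capitals, for Hspa5 at chr2:34771995-34772073 (+), Calr at chr8:84847045-84847123 (-), Pdia6 at chr12:17266461-17266539 (+) and Hsph1 at chr5:149636266-149636330 (-).
Hspa5: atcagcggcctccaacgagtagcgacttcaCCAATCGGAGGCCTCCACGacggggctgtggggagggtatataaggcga
Calr: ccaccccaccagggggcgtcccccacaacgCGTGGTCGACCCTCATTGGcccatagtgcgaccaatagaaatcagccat
Pdia6: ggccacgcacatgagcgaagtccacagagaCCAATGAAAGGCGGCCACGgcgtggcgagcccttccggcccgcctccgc
Hsph1: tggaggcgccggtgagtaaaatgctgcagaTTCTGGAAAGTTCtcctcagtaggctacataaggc
In Hspa5 the match began 65 bases before the start, in Calr 162 and in Pdia6 98, where Calr holds it in reverse complement. In Hsph1, for the second of its 2 listed starts, it lay after the start, also in reverse complement. A glucocorticoid response element GNACANNNTGTNC was in 0.475% of promoters and in 3 of 16 glucocorticoid list genes, Sgk1, Mt1 and Map3k6. Of these, only Map3k6 had an unadjusted p under 0.05 in edgeR over 29 libraries. None of the 3 motifs was in the promoter windows of the 5 genes called. A match is a run of letters in the window and not evidence of a bound site.

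**Figure D3:**
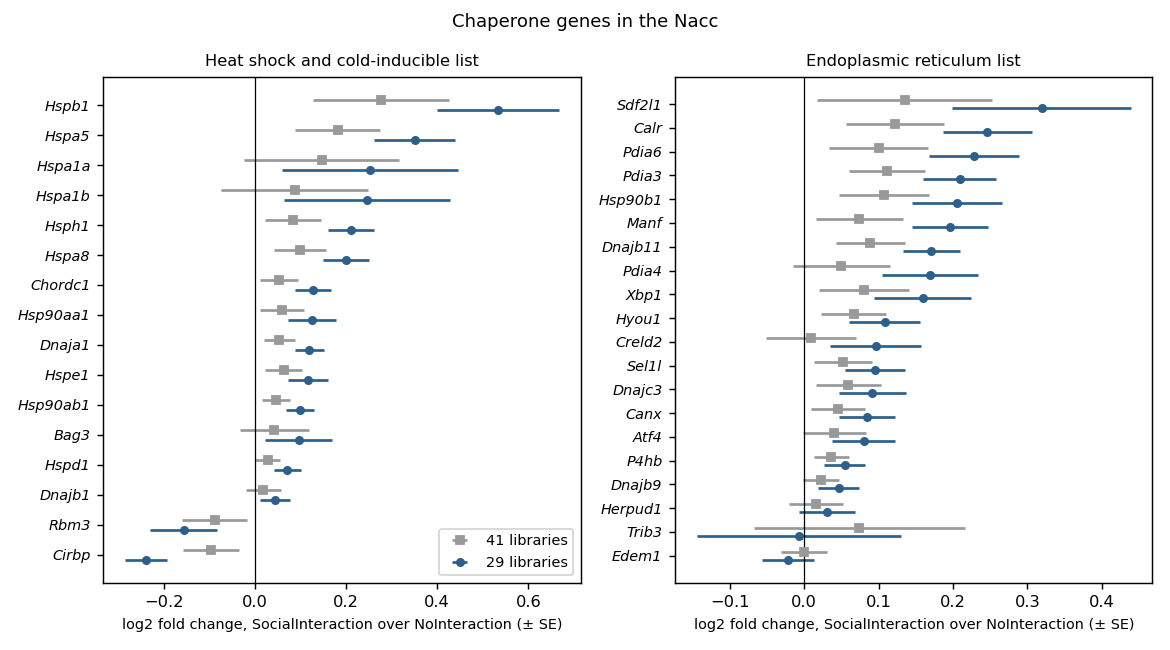
Log2 fold change of SocialInteraction over NoInteraction (x axis, bars are ± SE) for each gene of the heat shock and cold-inducible list (left) and the other genes of the endoplasmic reticulum list (right), over 41 libraries (squares) and 29 libraries (dots). Most dots lie to the right of 0, and Cirbp and Rbm3 to the left at -0.24 and -0.16.

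No immediate early transcription factor passed the test. Of 21 in the list, 0 had an unadjusted p under 0.05 over 29 or 41 libraries, and the median log2 fold change was 0.053 over 29 and -0.052 over 41. Fos, a subunit of the AP-1 factor, was 8.05 to 20.7 CPM after social interaction (median 13.8) and 2.06 to 31 without it (median 9.82), with a log2 fold change of -0.02 ± 0.34 over 29 libraries and -0.17 ± 0.29 over 41. The NoInteraction libraries had the wider range of the 2 groups. Egr1, Junb, Npas4 and Nr4a1 were at -0.04, -0.06, -0.11 and -0.02 over 29 libraries and at -0.14, -0.17, -0.15 and -0.23 over 41. Arc, which encodes a synaptic scaffold protein, was at 0.03 ± 0.24 over 29 libraries and -0.11 ± 0.20 over 41. With these errors, changes of this size were not detectable. Dusp1, a phosphatase that ends MAP kinase signals, was at 0.11 ± 0.16 over 29 libraries and -0.06 ± 0.14 over 41. In the list of 18 activity-induced effectors 0 passed over 29 libraries and 5 had an unadjusted p under 0.05, all higher: Vgf, Sorcs3, Nptx2, Pcsk1 and Inhba, beside 3.3% of all genes. Over 41 libraries 1 of the 18 was higher at that p, and the median log2 fold change was 0.052 against 0.14 over 29. Vgf encodes a secreted neuropeptide precursor and was 228 to 316 CPM after social interaction and 196 to 304 without it, with a log2 fold change of 0.23 ± 0.06 (adjusted p = 0.187 in edgeR, 0.0395 in DESeq2) and 0.11 ± 0.07 over 41 libraries. Nptx2, a secreted pentraxin that clusters AMPA receptors, was 14.8 to 54.4 CPM and 12.5 to 31.3 CPM, with 0.53 ± 0.20 (adjusted p = 0.488, edgeR) and 0.30 ± 0.18 over 41.

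**Figure D4:**
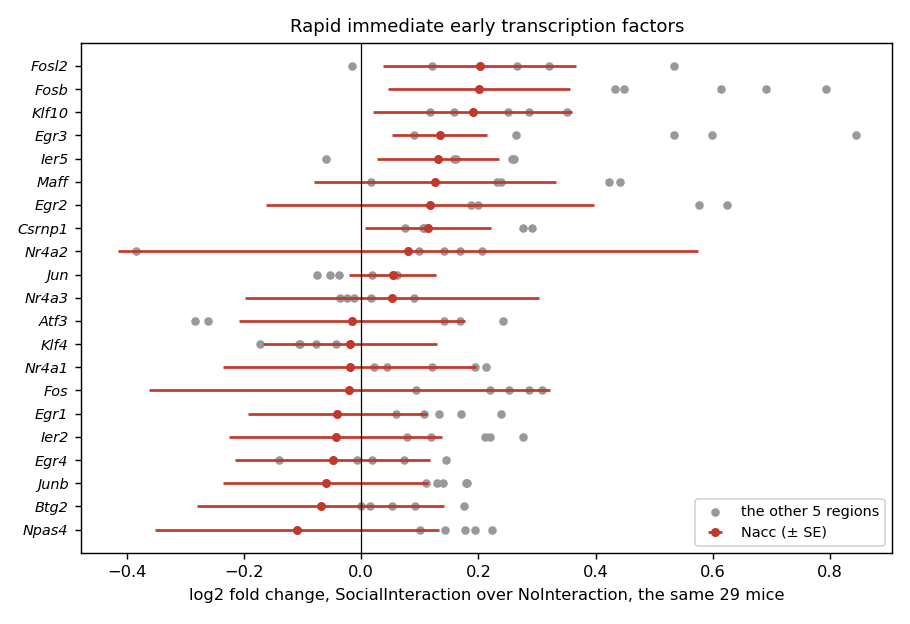
Log2 fold change of SocialInteraction over NoInteraction for 21 rapid immediate early genes, all with the same 29 mice. Red dots with bars are the Nacc ± SE, and grey dots the other 5 regions. In the Nacc Fosb is at 0.20, while its grey dots lie at 0.43 to 0.79.

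Dopamine receptor genes had estimates near 0. Drd1 was at 0.01 ± 0.11 and Drd2 at -0.06 ± 0.12 over 29 libraries, and Oxtr, the oxytocin receptor, at 0.03 ± 0.31. Over 41 libraries the values were -0.02 ± 0.10, -0.10 ± 0.11 and 0.05 ± 0.24. The lists below stand beside all genes tested. Over 29 libraries 3.3% of these were higher and 3.87% lower at an unadjusted p under 0.05, and 8220 of 15618 had a lower estimate. Over 41 libraries the shares were 1.25% and 1.19%, and 7974 of 15881 had a lower estimate. Over 29 libraries, of 14 medium spiny neuron genes 0 had an unadjusted p under 0.05 (median -0.025, 11 of 14 with a lower estimate), as did 0 of 7 genes of Drd1 neurons, 0 of 6 of Drd2 neurons, 0 of 10 interneuron genes, 0 of 8 cortical neuron genes, 0 of 4 septal genes and 0 of 8 microglia genes. Over 41 libraries these 7 lists also had 0 at that p, and all 14 medium spiny neuron genes had a lower estimate (median -0.051). The same holds for 0 of 8 endothelial and mural cell genes, whose summed level was 277.7 to 327.4 CPM after social interaction and 264.2 to 345.3 without it in the 29 libraries, beside the higher Ly6c1 and Mfsd2a. Clock genes had 1 of 16 higher and 1 lower, MAP kinase feedback genes 2 of 16 higher, and the 4 tested oxytocin and vasopressin genes had 0, while over 41 libraries 1 of them, Avp, was higher. Of 8 oligodendrocyte genes 2 were higher at an unadjusted p under 0.05, Mobp with a log2 fold change of 0.29 ± 0.11 and Mog with 0.17 ± 0.08. The summed level of the 8 genes was 2538 to 5059 CPM after social interaction and 2531 to 4218 without it, and its part in the other results was not tested. Of 8 meningeal genes 0 were under that p, but all 8 had a lower estimate, with a median of -0.32 and a summed level of 40.08 to 135.6 CPM against 37.21 to 326.2 CPM. Astrocytes had 1 of 8 higher, red cells 1 of 5 higher and neuroblasts 1 of 6 lower. Ttr, a choroid plexus gene, had an unadjusted p under 0.05 but was at most 1.72 CPM. Over 41 libraries the endothelial, clock, MAP kinase, oligodendrocyte, meningeal, astrocyte and red cell lists had 0 genes at that p, the neuroblast and choroid plexus lists 1 lower each, and 7 of 8 meningeal genes had a lower estimate (median -0.072).

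The response was next compared between the 3 conditions. Over 41 libraries 0 genes passed in Ctrl_Vehicle, ELA_Vehicle or ELA_SAFit2, and DESeq2 called 0, 2 and 5. Of 15881 genes tested, 344, 604 and 750 had an unadjusted p under 0.05. Over 29 libraries 1 gene passed in ELA_Vehicle, Clic5 at 0.45 ± 0.07 (1 of 15618 genes, 0.0064%, adjusted p = 0.0326, edgeR), and 0 in Ctrl_Vehicle and ELA_SAFit2, where 561 and 749 genes had an unadjusted p under 0.05. DESeq2 called 5 in Ctrl_Vehicle, 4 in ELA_Vehicle and 8 in ELA_SAFit2 over 29 libraries. In Ctrl_Vehicle Clic5 was at 0.27 ± 0.08 and in ELA_SAFit2 at 0.37 ± 0.07, and the differences between conditions did not pass (ELA_Vehicle minus Ctrl_Vehicle 0.18 ± 0.11, ELA_SAFit2 minus ELA_Vehicle -0.07 ± 0.10). Plin4 was at 3.20 ± 0.68, 2 ± 0.66 and 2.31 ± 0.68 in Ctrl_Vehicle, ELA_Vehicle and ELA_SAFit2, with a difference of -1.20 ± 0.93 between ELA_Vehicle and Ctrl_Vehicle. Pglyrp1 was at 1 ± 0.19, 0.34 ± 0.18 and 0.81 ± 0.18, with a difference of -0.66 ± 0.26 (adjusted p = 1, edgeR).

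In the test of any difference between the conditions 0 genes passed with edgeR over 41 or 29 libraries. An unadjusted p under 0.05 was found for 786 of 15881 and 467 of 15618 genes, and DESeq2 called 1 in each. For ELA_Vehicle minus Ctrl_Vehicle 0 passed, with 710 of 15881 and 404 of 15618 at an unadjusted p under 0.05 and 2 called by DESeq2 in each. For ELA_SAFit2 minus ELA_Vehicle 5 genes passed over 41 libraries (0.0315%), Cwc22 and its near-identical copies Gm13691, Gm13693, Gm13696 and Gm13698, which also have the 5 smallest p in the test of any difference. For that difference 1505 of 15881 genes had an unadjusted p under 0.05 over 41 libraries, and DESeq2 called 3. Over 29 libraries 0 passed, with 923 of 15618 at an unadjusted p under 0.05 and 4 called by DESeq2. Cwc22, a splicing factor gene, is among the 60 genes that differ between mice. It had a median of 26.9 CPM after social interaction and 26.6 without it, but reached 552 and 596 CPM in single libraries. Gm13691 had a median of 0 in both groups and reached 18.3 and 19.3 CPM. Reads of such copies cannot be assigned surely.

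The Nacc was then set beside the other 5 regions of the same mouse numbers. Fitted in the same way with 41 libraries each, the mPFC had 1202 genes called, the ACC 669, the BLA 257, the DMT 290 and the vHipp 222, against 0 for the Nacc. With the 29 mice whose Nacc library matched its own number, the other regions had 348, 477, 7, 102 and 21 genes called, against 5 in the Nacc. Leaving out the same 12 mice thus moved the BLA from 257 to 7 and the vHipp from 222 to 21, although their libraries matched their own numbers.

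The 5 genes called were set beside the other regions in the same 29 mice. The Nacc values of Plin4, Mfsd2a and Pglyrp1 lay within the range of the other regions, and those of Clic5 and Ly6c1 above it. Plin4 was at 1.92 to 2.73 in the other regions and passed in each of the 5, and Mfsd2a was at 0.42 to 0.53 and passed in each of the 5. Ly6c1 was at 0.27 to 0.34 and passed in 2, and Pglyrp1 at 0.38 to 0.84 and passed in 4. Clic5 was at -0.02 to 0.30 and passed in 0, lowest in the DMT at -0.02 ± 0.05. With all 41 mice, Clic5 was at -0.02 to 0.27 in the other regions and passed in 2 of them. Ly6c1 then passed in each of the 5. The difference between the Nacc and the mean of the other regions was 0.22 ± 0.08 for Clic5 without the 12 libraries (unadjusted p = 0.00479, adjusted p = 1, edgeR). That fit had no mouse term and left out the 12 Nacc libraries only, while the other regions kept all 41 mice. With the 29 mice, Hspa5 was at 0.31 to 0.44 in the other regions and Cirbp at -0.23 to -0.16.

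**Figure D5:**
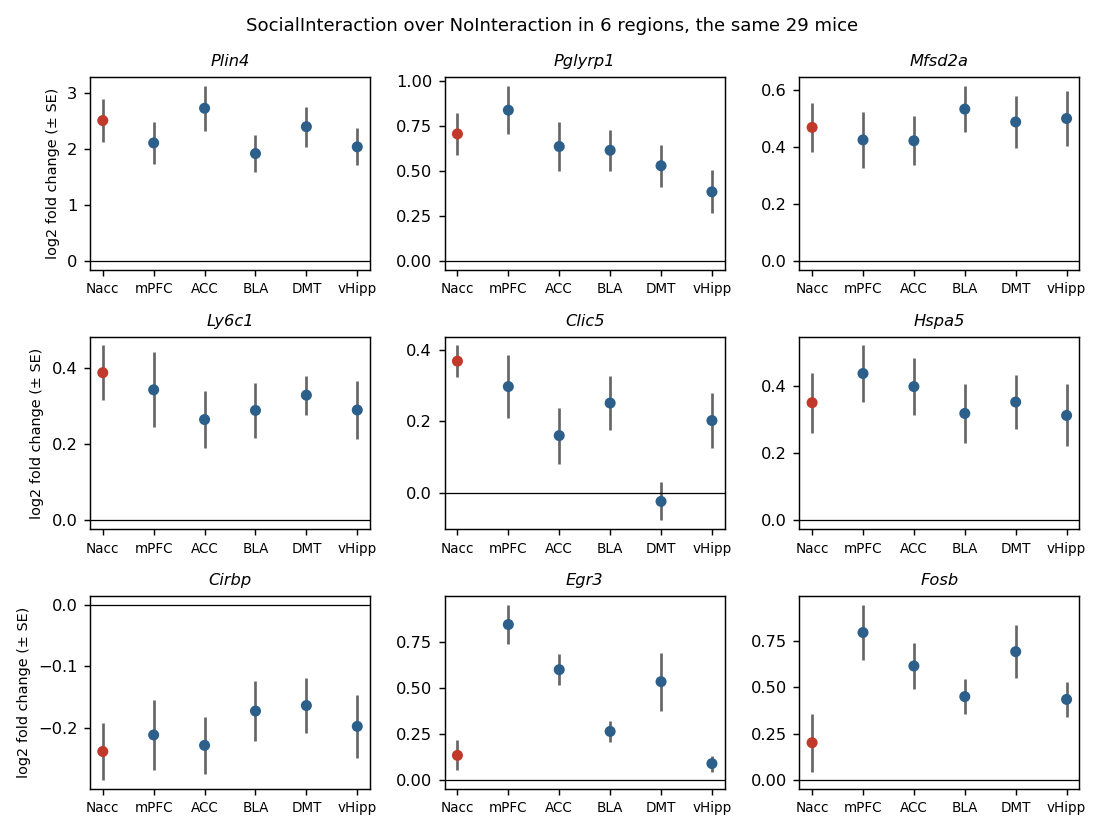
Log2 fold change of SocialInteraction over NoInteraction (y axis, bars are ± SE) in 6 regions of the same 29 mice for 9 genes, with the Nacc in red. Plin4, Mfsd2a and Hspa5 lie above 0 and Cirbp below 0 in all 6 regions, and Fosb and Egr3 are at 0.20 and 0.13 in the Nacc against 0.79 and 0.84 in the mPFC.

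The Nacc response minus the mean of the other 5 responses was first tested without a mouse term. That fit treats the libraries of 1 mouse as independent. At an unadjusted p under 0.05 it had 290 genes higher and 505 lower in the Nacc. With all libraries of the 6 regions, 0 genes higher and 2 lower passed (0.0126%). The 2 were the transcription factors Egr3 (-0.46 ± 0.10, adjusted p = 0.0333, edgeR) and Fosb (-0.61 ± 0.13, adjusted p = 0.0333, edgeR). Fosb itself was 12.9 to 20.8 CPM after social interaction (median 18.3) and 7.45 to 24.7 without it (median 16.3) in the 29 Nacc libraries, and its log2 fold change of 0.20 ± 0.16 did not pass. The other 3 of the 5 smallest p among lower genes were Ncbp1, Imp4 and Rin1, and Gm13695, Gas2, Epha1 and Sema6d had small p among higher genes, and none of these passed. With the mouse number as a replicate block 37 genes passed (0.233%), 9 higher and 28 lower in the Nacc. Among them were Fosb (-0.59 ± 0.09), Mfsd2a (-0.23 ± 0.05), Hspa5 (-0.24 ± 0.05) and Manf (-0.22 ± 0.04), a secreted protein of the endoplasmic reticulum. This block joins the 12 Nacc libraries to a mouse they did not match. Of the 60 genes that differ between mice, Akr1e1 (0.55 ± 0.10), Csnk2a1-ps3 (0.47 ± 0.10) and Ahcyl (-0.28 ± 0.07) also passed, while Fos, Dusp1 and Cwc22 did not. With the block but without the 12 libraries, Akr1e1, Csnk2a1-ps3 and Ahcyl were at 0.045, -0.002 and -0.03. Without the 12 libraries 0 genes passed, both without the block (151 higher and 207 lower at an unadjusted p under 0.05) and with it (177 and 256). In these fits only the 12 Nacc libraries were left out, and the other regions kept all their libraries. There the difference was -0.44 ± 0.14 for Fosb and -0.38 ± 0.11 for Egr3 without the block, with an unadjusted p of 0.0024 and 0.000656 and an adjusted p of 1 in edgeR. For Mfsd2a it was 0.00 ± 0.09, for Hspa5 -0.08 ± 0.10 and for Manf -0.11 ± 0.07.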

How the data were processed

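The deposited table gives for each gene the authors' estimated counts from stranded, poly-A selected, paired-end reads. The table's name gives salmon, and the submitters' processing notes name STAR, DESeq2 and the build GRCm39 (mm39), with tool versions not given in the sources used here. No scaling for depth or length had been applied, and 12.12% were not whole, so they were rounded. Gene types came from GENCODE M21 and RefSeq tables (52073 and 978 of 56691 genes matched, 3640 left out). Protein-coding genes that summed to 100 counts or more over the Nacc libraries, and were counted in 6 or more of them, were tested with edgeR 4.0.16 (TMM, quasi-likelihood test, R 4.3.3) with condition as covariate and Benjamini-Hochberg adjustment over all genes tested. DESeq2 1.42.0 and limma 3.58.1 were alternatives. Levels are TMM-scaled CPM. Marker sums and levels set across regions are CPM of the total count. SE is the log2 fold change over the root of edgeR's F. Tools were tested on simulated counts.

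By label each mouse number is 1 animal in every region. Over the identity genes every library of the other 5 regions matched its own number best, apart from 1 ACC library, but 12 of the 41 Nacc libraries did not. A replicate block by labelled number was run for the comparison of regions, and it joins those 12 to a mouse they did not match. Each library was matched to mice by correlation of log2 (CPM + 1) over 60 genes with an SD above 0.25 across mice and a mean above 2. Promoters came from RefSeq GRCm38.p6, a different build from the counts, and 1 chromosome was not searched. Alternatives run over the 29 libraries, and the block without the 12, were chosen after seeing the data.

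Genes named are the 5 smallest p in each direction of the 41-library fit (none passed), list members that pass, Fos, Junb, Egr1, Arc, Npas4, Nr4a1, Dusp1, Fkbp5, Nr3c1, Drd1, Drd2 and Oxtr, and the 5 smallest p in the tests between conditions and regions. All others were named after their values were seen. A gene that the rule names in the test between regions is not reported here. The members and lists were chosen with earlier results of these data known. Total counts, 22492997 to 43351424, set the counting error. Intervals are of the log2 fold change between groups, estimated from the spread between mice, and do not give the range of single mice.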

Additional observations from a re-analysis of the deposited data

Results flagged for a closer look

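Single libraries stood far from the rest of their group of 6 or 7 in 15 of 108 groups tested over 18 genes. Chance flags about 1 in 20 groups. The same libraries recur across genes, and some genes were named after their values were seen, so no excess over chance can be read from this count. Mouse 57 (Ctrl_Vehicle SocialInteraction, own number) was far above its group for Plin4 (43.7 CPM), Mfsd2a (39.3), Ly6c1 (32.9), Pglyrp1 (9.55) and Fkbp5 (90.7). The ELA_SAFit2 NoInteraction library of mouse 39, 1 of the 12 that matched another number, was apart for Plin4 (5.60), Pglyrp1 (4.55) and Mfsd2a (21.7). The ELA_Vehicle SocialInteraction library of mouse 59, also 1 of the 12, was apart for Ly6c1 (15.8) and Cirbp (85.6). Among libraries with their own number, mouse 63 was apart for Plin4 (13), mouse 41 for Fos (20.3), an ELA_Vehicle SocialInteraction mouse for Drd2 (167) and mice 65 and 53 for Oxtr (23.8 and 26.2).

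Over the 41 libraries as labelled, the test of ELA_SAFit2 minus ELA_Vehicle passed for Cwc22 (5.47 on the log2 scale), Gm13691 (15.1), Gm13693 (15.5), Gm13696 (12.7) and Gm13698 (16). In edgeR 0 genes passed it without the 12 libraries that matched another number, and 0 passed the test of any difference. Cwc22 is also among the 60 genes that differ between mice. The fitted values of the Gm genes rest on groups with many libraries at 0 and are no measure of size. With all libraries as labelled, the test between the Nacc and the other regions passed for Fosb (-0.61) and Egr3 (-0.46). Without the 12 Nacc libraries 0 genes passed it, and Fosb and Egr3 were at -0.44 and -0.38.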

How the results depend on the processing

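Over 41 libraries the count of genes past the threshold was 0 under each alternative, which were DESeq2, DESeq2 size factors, no low count filter, filterByExpr, all gene types, no condition term, the library number, the place of the punch and voom weights as well as every left-out library (0 to 0), except that it was 5 without the 12 libraries. Over 29 libraries it was 36 with DESeq2 and 8 with voom weights, and 3 to 11 with each library left out. It was 3 without 1 ELA_Vehicle SocialInteraction mouse, Ctrl_Vehicle mice 33, 97 and 41 or ELA_SAFit2 mice 63 and 87, 10 without ELA_Vehicle mouse 13 and 11 without ELA_Vehicle mouse 43. Mfsd2a passed in 23 and Ly6c1 in 18 of 29 left-out fits, the other 3 genes in all 29. Plin4 did not pass with voom weights. Genes with an unadjusted p under 0.05 over 41 libraries were 387, and 832 without ELA_Vehicle mouse 69. Within conditions DESeq2 called 2 in ELA_Vehicle and 5 in ELA_SAFit2, and 1 gene passed in ELA_Vehicle without the 12 libraries. For any difference DESeq2 called 1, for ELA_Vehicle minus Ctrl_Vehicle 2 and for ELA_SAFit2 minus ELA_Vehicle 3. Without the 12 libraries 0 passed with edgeR for ELA_SAFit2 minus ELA_Vehicle, and DESeq2 called 4. The 2 genes that set the Nacc apart from other regions became 37 with a replicate block, 0 without the 12 libraries and 0 with both. The same 12 libraries matched another number with 20 or 40 genes and with Spearman correlation. Without the 12 libraries Arc (0.0326), Dusp1 (0.114) and Drd1 (0.0073) changed sign, and leaving out a library changed the sign of Nr3c1 (-0.0295 to 0.0133), Drd1 (-0.0759 to 0.00411) and Oxtr (-0.0965 to 0.212). The cause was not tested. No paired analysis was possible because the mice with and without interaction are different animals, so exposure within the Nacc has no pairs.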
